A study of Mus musculus with 5 samples.

Results

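The genes described here carry the Hedgehog signal of the mouse uterus from its epithelium to its stroma. They were chosen by name for their place in the pathway, with earlier results of these data already known. Of the 28666 genes listed for the 5 libraries they are 9. They are the ligand Ihh, the receptor Ptch1, the ligand-binding antagonist Hhip, the signal transducer Smo, the transcription factors Gli1, Gli2 and Gli3, and the stromal transcription factors Nr2f2 and Hand2. Each library held polyadenylated RNA of the whole uterus of ICR females aged 6 to 8 weeks, which had mated with vasectomised C57BL/6 males and so had received seminal plasma (SP) without sperm and carried no embryos. In the young-SP group (n = 3, replicates 1, 2 and 4) the males were 12 to 14 weeks old, and in the aged-SP group (n = 2, replicates 1 and 4) they were 12 to 18 months old. Uteri were taken at 3.0 days post coitum according to the methods, whereas the series description counts 3.5 days from caging. No library of unmated females was analysed here, so both groups had been exposed to seminal plasma and differed by the age of the male. The sources used here do not say whether a library came from 1 female or from several, and the p-values measure only the spread between these libraries.

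Before implantation, progesterone acting on its receptor in the uterine epithelium induces Ihh, which is secreted toward the stroma beneath. There the ligand binds Ptch1, which otherwise holds Smo inactive, and the released Smo turns the Gli factors into activators of transcription. Ptch1, Hhip and Gli1 are themselves transcribed in response to the signal and are widely used as its readout, while Nr2f2 and Hand2 act in the stroma, where Hand2 restrains the growth factors that drive epithelial division. Mice without uterine Ihh or Nr2f2 do not support implantation.

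Ihh and its 3 response genes had lower levels in the aged-SP libraries. Mean levels in the young-SP group were 3.44 times those of the aged-SP group for Ihh, 3.28 times for Gli1, 2.3 times for Ptch1 and 7.71 times for Hhip, as fitted by edgeR. For each of these genes both aged-SP libraries lay below all 3 young-SP libraries. Smo, Gli2, Gli3, Nr2f2 and Hand2 differed by at most 0.40 on the log2 scale. With all 5 libraries, edgeR's quasi-likelihood test called 0 of the 9 genes (a call needed a Benjamini-Hochberg adjusted p below 0.05 together with a log2 fold change beyond 1 in either direction), where it called 0.0647% of the 17013 tested genes as lower. At an unadjusted p under 0.05 the test passed 7 of the 9, all lower in the aged-SP group, against 9.36% of tested genes in that direction. DESeq2's Wald test called 4 of the 9 as lower (Ihh, Ptch1, Hhip and Gli1), against 1.92% of the genes it tested. Limma-voom called 0 of the 9, where it called only 27 of all tested genes.

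The call turned on young-SP replicate 1. This library had the lowest young-SP level in FPKM of every member but Smo, and its summed gland markers and proliferation markers were the highest of its group (406 and 733 CPM, counts scaled to the library total, against 33.7 to 39.5 and 347 to 441). Of its gland sum, 385 CPM came from Prss29 alone, while the gland marker Foxa2 was the lowest of the group (8.51 CPM against 14.1 and 11.6). Without young-SP replicate 1, edgeR called the same 4 genes, where it called 1.71% of 16745 tested genes as lower. No library was removed from the values below unless this is stated. Total counts lay between 15071914 and 16728601 per library, and a further young-SP library that the authors removed was not analysed here.

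**Figure D1:**
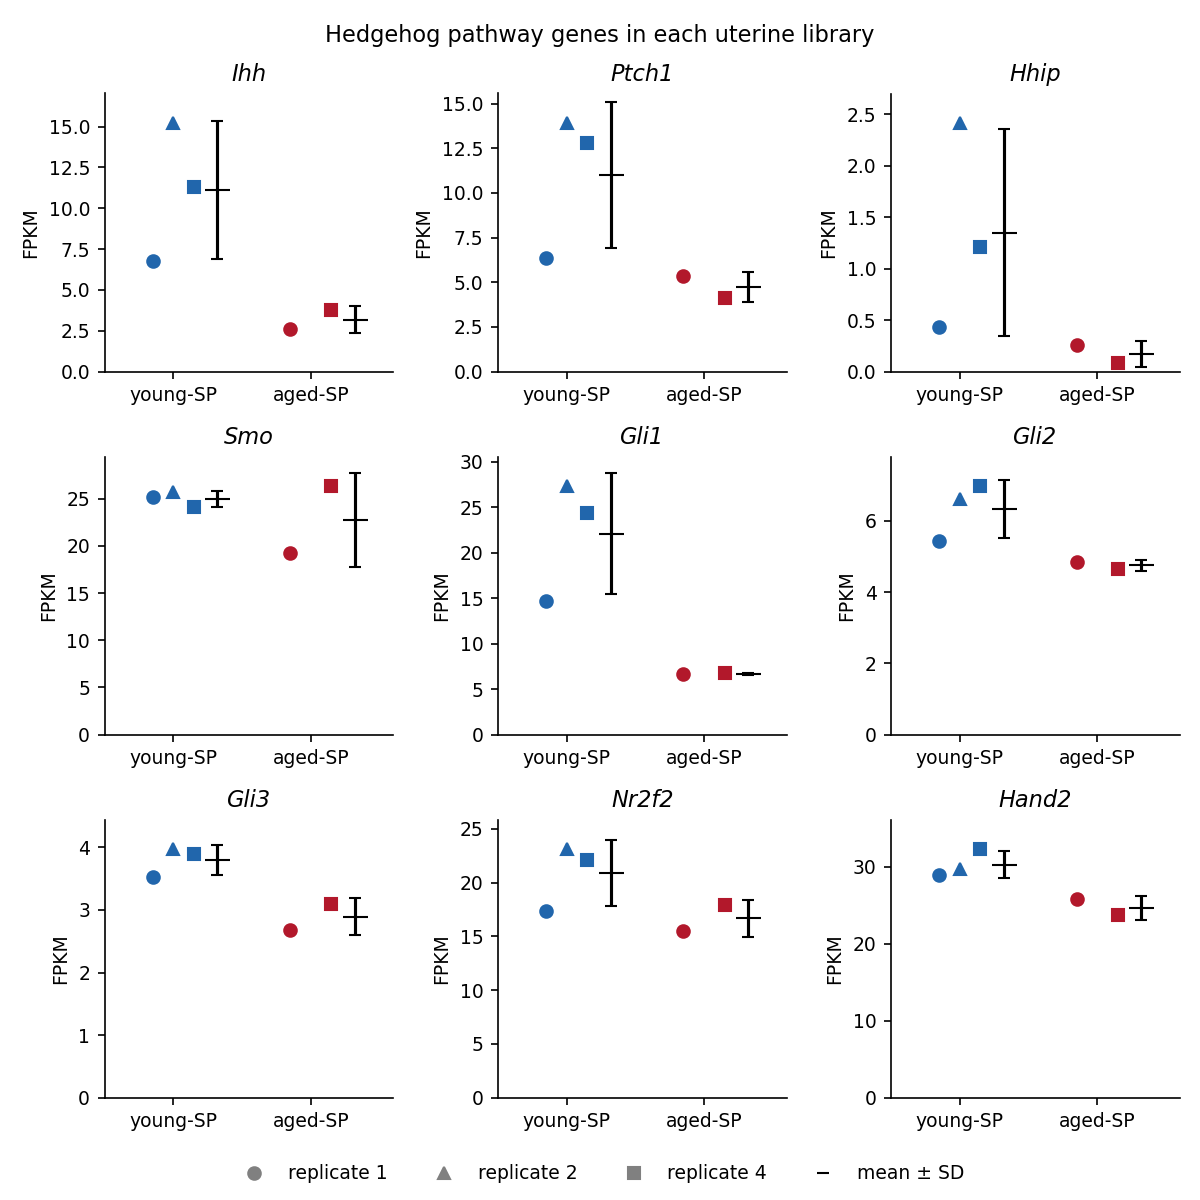
Level of each of the 9 genes in FPKM (linear axes from 0) in every library, with the mean and SD of the group as a bar (young-SP n = 3, aged-SP n = 2). Red aged-SP points lie below all blue young-SP points for 7 genes, and the groups overlap for Smo and Nr2f2.

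Ihh, the ligand, lies on the minus strand of chromosome 1 at chr1:74945315-74951672, in the coordinates of the deposited table, which match mouse build GRCm38. Its level in FPKM (fragments scaled to transcript length and library total) was 2.59 and 3.77 in aged-SP replicates 1 and 4. In young-SP replicates 1, 2 and 4 it was 6.76, 15.2 and 11.3. The lowest young-SP library was thus above the highest aged-SP library, and the young-SP libraries were also the more spread of the groups (11.1 ± 4.22, SD, n = 3, against 3.18 ± 0.833, n = 2). The counts behind these levels were 132 and 180 in the aged-SP group and between 332 and 767 in the young-SP group. The log2 fold change of aged-SP over young-SP was -1.78 (SE 0.38, 95% interval -2.73 to -0.84), with an edgeR adjusted p of 0.109. Without young-SP replicate 1 it was -2.05 (SE 0.24), with an edgeR adjusted p of 0.0237, and over the edgeR and limma-voom alternatives the adjusted p ran from 0.0237 to 0.37. DESeq2 gave Ihh an adjusted p of 0.000122.

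In whole-uterus RNA, fewer cells of a type and less RNA per cell cannot be told apart. All 6 epithelial markers were detected (Epcam, Cdh1, Krt7, Krt8, Krt18 and Krt19), and their summed level was 1124 to 1257 CPM in the aged-SP libraries and 727 to 1482 CPM in the young-SP libraries, so the groups overlapped. Of these 6 markers, Krt18 did not overlap (log2 fold change 0.38, higher in the aged-SP libraries). Epcam (0.75), Krt7 (0.81), Cdh1 (0.19), Krt8 (-0.15) and Krt19 (-0.42) overlapped. The summed epithelial markers were highest in young-SP replicate 1, the young-SP library with the least Ihh. Set against the mean log2 level of these markers, Ihh stood at -4.42 and -4.12 in the aged-SP libraries and at -3.47, -1.17 and -1.93 in young-SP replicates 1, 2 and 4. The difference between the groups was -2.08 on the log2 scale, with no overlap (two-sided exact permutation p = 0.2, the smallest that 2 against 3 libraries can give, and 0.36 after adjustment over 9 such comparisons). Leaving out young-SP replicate 1 gave -2.72, and leaving out young-SP replicate 2 gave -1.57. Gland markers (Foxa2, Cxcl15, Prss29 and Lif) summed to 2153 to 2478 CPM in the aged-SP group and 33.7 to 406 CPM in the young-SP group. That sum came mostly from the serine protease Prss29, at 2064 and 1809 FPKM against 324, 2.56 and 9.74 FPKM. Cxcl15 went the other way, at 1.35 and 0.9 FPKM against 4.06, 9.68 and 3.81 FPKM (log2 fold change -2.35). Foxa2 and Lif overlapped between the groups, at log2 fold changes of -0.02 and 0.71. The part of single epithelial markers and of the gland markers in the Ihh result was not tested.

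Ptch1, the receptor that Ihh binds, also on a minus strand at chr13:63508328-63573598, stood at 5.34 and 4.13 FPKM in aged-SP replicates 1 and 4. In young-SP replicates 1, 2 and 4 its level was 6.36, 13.9 and 12.8 FPKM. The groups did not overlap, but young-SP replicate 1 lay nearer to the aged-SP libraries than to the other young-SP libraries. Ptch1 had a log2 fold change of -1.20 (SE 0.36, 95% interval -2.09 to -0.31), with an edgeR adjusted p of 0.176. Without young-SP replicate 1 the difference was -1.48 (SE 0.16) and the edgeR adjusted p 0.0203, within a range of 0.0203 to 0.421 over the edgeR and limma-voom alternatives.

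Hhip, a membrane protein that binds Hedgehog ligands and keeps them from the receptor, was the least abundant member. It lies on the minus strand at chr8:79965851-80058006. Its counts were 39 and 12 in the aged-SP libraries and 63, 363 and 165 in the young-SP libraries, or 0.257 and 0.0843 FPKM against 0.431, 2.41 and 1.21 FPKM. The groups did not overlap, and the young-SP libraries spanned a wider range than the gap between the groups. The log2 fold change of -2.95 had the largest error of the 9 (SE 0.88, 95% interval -5.15 to -0.75), and its edgeR adjusted p was 0.177. It was -3.37 (SE 0.60) without young-SP replicate 1, with an edgeR adjusted p of 0.0482, the lowest of a range up to 0.411 over the edgeR and limma-voom alternatives. Leaving out 1 library at a time, the value ran from -3.97 (without aged-SP replicate 1) to -2.25 (without young-SP replicate 2).

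Gli1, the Gli factor whose transcription follows the signal, showed the smallest unadjusted p of the members (0.00107). It lies on the minus strand at chr10:127329882-127341974. Its level was 6.62 and 6.73 FPKM in the aged-SP libraries and 14.7, 27.3 and 24.4 FPKM in young-SP replicates 1, 2 and 4. The aged-SP values were nearly equal (6.67 ± 0.0795, SD, n = 2), and every young-SP value was above them (22.1 ± 6.62, n = 3). The log2 fold change was -1.71 (SE 0.28, 95% interval -2.40 to -1.03), with an edgeR adjusted p of 0.076. Without young-SP replicate 1 it was -1.94 (SE 0.10) with an edgeR adjusted p of 0.00744, and the adjusted p ran from 0.00744 to 0.281 over the edgeR and limma-voom alternatives. DESeq2 gave an adjusted p of 2.53e-07. Of the exon bases of Gli1, 6.55% also belong to Gm47200 or Arhgap9, and the library kit does not mark the strand, so reads of these bases cannot be assigned to one gene with certainty.

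Smo, the transducer that every Hedgehog signal passes through, sits on the plus strand at chr6:29735503-29761365 and was among the more abundant members. Its level was 19.2 and 26.3 FPKM in the aged-SP libraries and 25.2, 25.7 and 24.1 FPKM in the young-SP libraries. Aged-SP libraries held both the lowest and the highest value, so the groups overlapped. For Smo the log2 fold change was -0.12 (SE 0.14), with a 95% interval of -0.48 to 0.23 and an edgeR adjusted p of 0.677. The sign was set by aged-SP replicate 1, since the value without it was 0.08.

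Gli2 and Gli3, the factors that convey the signal before Gli1 is made, with Gli3 acting mainly as a repressor when no ligand is present, differed far less than Gli1. Gli2 (minus strand, chr1:118834132-119053619) stood at 4.85 and 4.64 FPKM in the aged-SP libraries against 5.43, 6.62 and 6.97 FPKM, a log2 fold change of -0.40 (SE 0.13, 95% interval -0.74 to -0.07, edgeR adjusted p = 0.207). Gli3 (plus strand, chr13:15463235-15730026) stood at 2.68 and 3.10 FPKM against 3.53, 3.97 and 3.90 FPKM, a log2 fold change of -0.38 (SE 0.12, 95% interval -0.67 to -0.09, edgeR adjusted p = 0.178). In both genes the groups did not overlap, but neither difference reached the threshold with or without young-SP replicate 1.

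Nr2f2, a nuclear receptor also called COUP-TFII that mediates the stromal response to Ihh, lies on the minus strand at chr7:70351944-70366735. Its level was 15.5 and 17.9 FPKM in the aged-SP libraries and 17.4, 23.1 and 22.1 FPKM in the young-SP libraries, and young-SP replicate 1 fell between the aged-SP values. This gave a log2 fold change of -0.31 (SE 0.15, 95% interval -0.68 to 0.06), with an edgeR adjusted p of 0.326. Hand2 lies on the plus strand at chr8:57320983-57324633 and stood at 25.8 and 23.7 FPKM against 28.9, 29.7 and 32.3 FPKM. Its groups did not overlap, yet the log2 fold change was only -0.28 (SE 0.10, 95% interval -0.53 to -0.03), with an edgeR adjusted p of 0.23. Exons of Hand2os1 cover 19.6% of the exon bases of Hand2, and those of B130024G19Rik cover 7.46% of Nr2f2, so part of either level may belong to the overlapping gene.

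**Figure D2:**
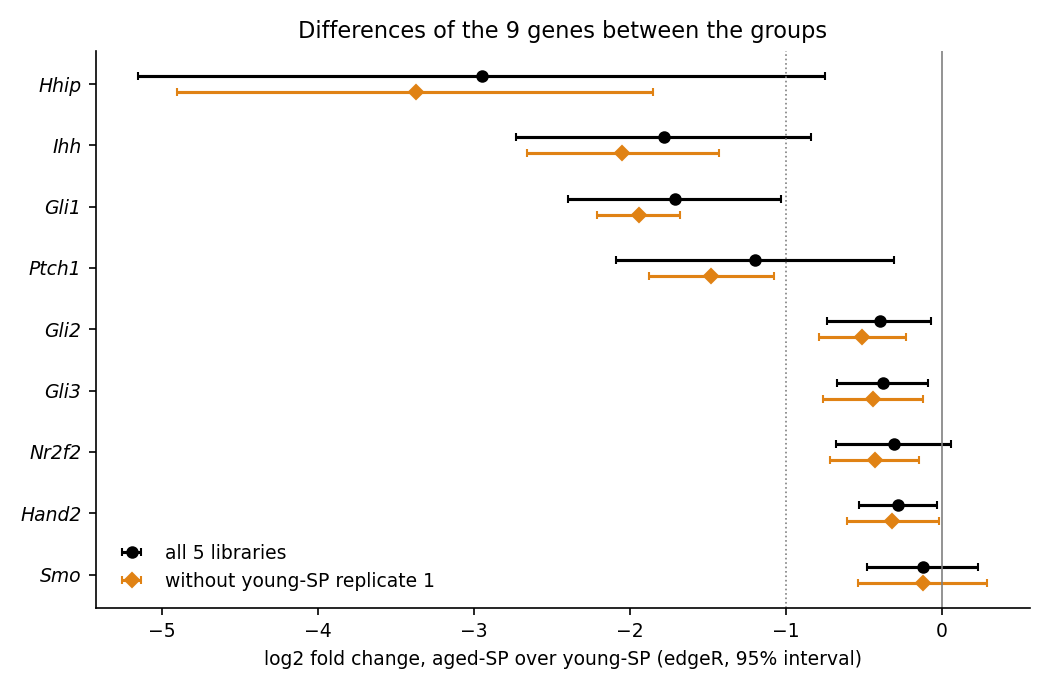
Log2 fold change of aged-SP over young-SP for each gene with its 95% interval from edgeR, with all 5 libraries (black circles) and without young-SP replicate 1 (orange diamonds), and with dotted and solid lines at -1 and 0. Hhip, Ihh, Gli1 and Ptch1 lie beyond -1, and the other genes lie between -0.40 and -0.12 with all libraries.

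The log2 fold change was below 0 for 9 of the 9 members, as it was for 49.1% of all tested genes, and the median over the members was -0.40 against 0.01 over all tested genes. In 7 of the 9 both aged-SP libraries lay below all young-SP libraries, which held for 19.3% of tested genes. A lower log2 fold change than that of Hhip was found for 0.488% of tested genes, than that of Ihh for 1.59%, than that of Gli1 for 1.7% and than that of Ptch1 for 3.24%. For Gli2, Gli3, Nr2f2, Hand2 and Smo this share was between 15.5% and 34.3%. The members fall in this order by the size of the difference, with the ligand and the response genes at one end and the transducer at the other.

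Most members act in stroma, and the 5 stromal markers (Pdgfra, Dcn, Lum, Hoxa10 and Hoxa11) were all detected. Their summed level was 3281 to 4018 CPM in the aged-SP libraries and 3257 to 4628 CPM in the young-SP libraries, so the groups overlapped. Of these 5 markers, Pdgfra (log2 fold change -0.65) and Hoxa11 (-0.28) did not overlap, while Dcn (0.07), Lum (-0.39) and Hoxa10 (-0.09) did. Against the mean log2 level of these markers, Ptch1 differed between the groups by -0.88, Gli1 by -1.41 and Hhip by -2.48, each with no overlap and an exact permutation p of 0.2, the smallest possible (0.36 after adjustment over the 9 comparisons). The value of Hhip was -3.30 without aged-SP replicate 1 and -1.66 without aged-SP replicate 4. The same quantity was -0.14 for Gli2, -0.13 for Gli3, -0.05 for Nr2f2, -0.02 for Hand2 and 0.12 for Smo, and of these only Gli3 had groups that did not overlap. Lymphatic markers (Lyve1, Prox1 and Flt4) summed to 188 to 197 CPM in the aged-SP group against 84.8 to 129 CPM. Proliferation markers (Mki67, Top2a, Pcna and Mcm2) summed to 300 to 321 CPM against 347 to 733 CPM. Neither list overlapped between the groups, and their part in the results was not tested. The summed markers of myometrium, blood endothelium, leukocytes, oviduct, ovary and adipose tissue overlapped between the groups. Among the single markers of these lists, only the leukocyte marker Itgax and the myometrial marker Acta2 did not overlap. Itgax was higher in the aged-SP libraries (log2 fold change 0.49) and Acta2 lower (-0.42).

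The response genes were also set against the ligand within each library. For Gli1 the ratio of its FPKM to that of Ihh was 2.56 and 1.79 in the aged-SP libraries and 2.17, 1.8 and 2.17 in the young-SP libraries, and the means were close (2.17 ± 0.544, n = 2, and 2.04 ± 0.214, n = 3). Gli1 and Ihh ranked the 5 libraries in the same order, and the log2 ratio differed between the groups by 0.06 (exact permutation p = 1, Benjamini-Hochberg adjusted over 5 ratios 1). For Ptch1 the ratio to Ihh was 2.06 and 1.1 in the aged-SP libraries against 0.94, 0.914 and 1.14, a log2 difference of 0.59 with overlapping groups (exact permutation p = 0.4, adjusted 0.667), which was 0.14 without aged-SP replicate 1 and 1.04 without aged-SP replicate 4. For Hhip the ratio was 0.0992 and 0.0224 against 0.0637, 0.159 and 0.107, a log2 difference of -1.01 with overlap (exact permutation p = 0.4, adjusted 0.667). This value was -2.01 without aged-SP replicate 1, -0.02 without aged-SP replicate 4 and -0.51 on the scale of log2 (FPKM + 0.1). None of these ratios separated the groups, and with 2 against 3 libraries the exact test cannot pass 0.05 at any size of difference.

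Between the Gli factors the ratio did separate them. The FPKM of Gli1 was 2.47 and 2.17 times that of Gli3 in the aged-SP libraries and 4.15, 6.88 and 6.26 times in the young-SP libraries, a log2 difference of -1.28 with no overlap (exact permutation p = 0.2, the smallest possible, adjusted 0.667). The ratio of Hand2 to Nr2f2 was 1.67 and 1.32 against 1.66, 1.29 and 1.46, and the log2 difference was 0.03 (exact permutation p = 0.8, adjusted 1).

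**Figure D3:**
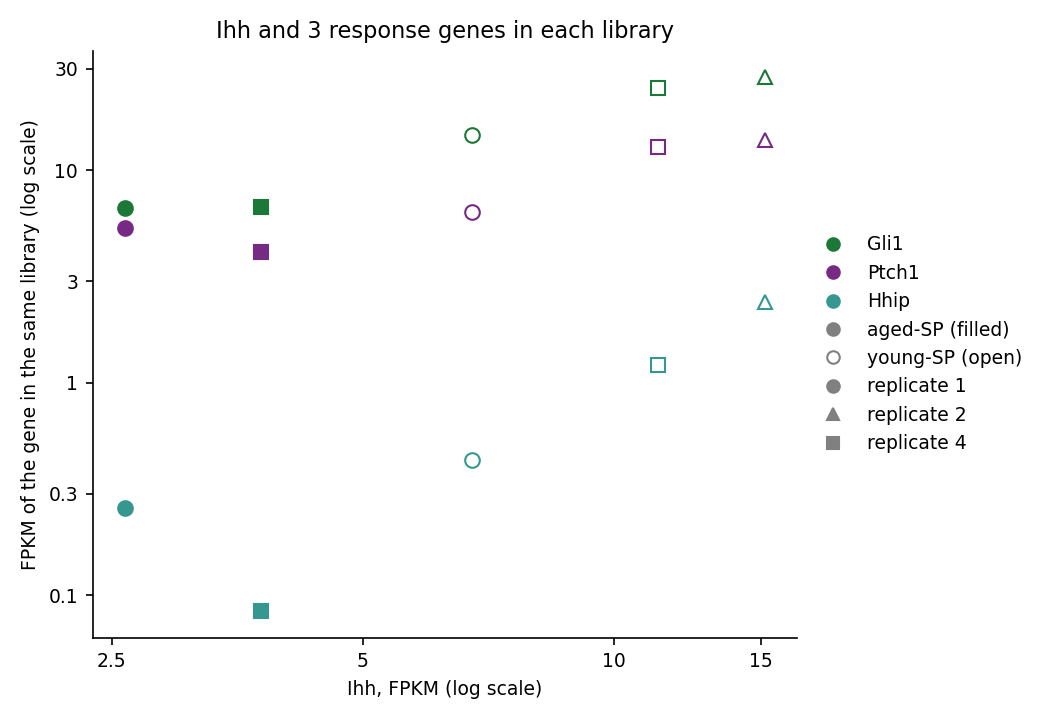
FPKM of Gli1, Ptch1 and Hhip against FPKM of Ihh in the same library (both axes logarithmic), with aged-SP filled, young-SP open and the replicate given by shape. For all 3 genes the aged-SP libraries lie at the lower left and young-SP replicates 2 and 4 at the upper right, with young-SP replicate 1 between them.

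The order of the 9 genes by level was set in FPKM. The mean over the 5 libraries was 28.1 ± 3.37 FPKM for Hand2 and 24.1 ± 2.84 FPKM for Smo, and Hand2 was above Smo in 4 of the 5 libraries, so this pair was not cleanly separated. Nr2f2 followed at 19.2 ± 3.27 FPKM and Gli1 at 16 ± 9.68 FPKM, with Nr2f2 above Gli1 in 3 of 5. Ptch1 (8.51 ± 4.51 FPKM), Ihh (7.92 ± 5.27 FPKM) and Gli2 (5.7 ± 1.05 FPKM) did not differ beyond their spread, and Gli3 (3.44 ± 0.547 FPKM) and Hhip (0.879 ± 0.96 FPKM) came last. From the aged-SP to the young-SP group, Ihh moved from rank 7 of the 9 genes to rank 5, Gli1 from 4 to 3, Gli2 from 5 to 7 and Nr2f2 from 3 to 4. Ptch1, Hhip, Smo, Gli3 and Hand2 had the same rank in both groups.

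The promoters of Ihh and Ptch1 are shown because these genes open and receive the signal and were both lower in the aged-SP libraries. The sequences are the 250 bases before the transcription start in RefSeq (build GRCm38.p6), read 5′ to 3′ on the minus strand of each gene, and capitals mark the GC box letters GGGCGG or their reverse complement.
Ihh promoter (chr1:74951673-74951922, minus strand): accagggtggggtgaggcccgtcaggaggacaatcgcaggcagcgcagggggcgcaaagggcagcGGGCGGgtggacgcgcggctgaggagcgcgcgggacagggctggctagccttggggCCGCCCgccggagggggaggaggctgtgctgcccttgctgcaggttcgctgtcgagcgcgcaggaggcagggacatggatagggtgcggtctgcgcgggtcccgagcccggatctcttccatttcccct
Ptch1 promoter (chr13:63565736-63565985, minus strand): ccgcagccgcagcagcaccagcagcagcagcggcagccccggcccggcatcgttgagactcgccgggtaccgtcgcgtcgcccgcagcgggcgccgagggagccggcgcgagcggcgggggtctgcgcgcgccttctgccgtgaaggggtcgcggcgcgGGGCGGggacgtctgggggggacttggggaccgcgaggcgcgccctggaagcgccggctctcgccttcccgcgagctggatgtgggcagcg
The RefSeq start used for Ptch1 lies inside the span that the table gives the gene. The Ihh stretch holds 2 GC boxes in 72% G and C, and the Ptch1 stretch holds 1 in 78.4%. RefSeq promoters were matched for 8 of the 9 members, all but Gli1, and were searched on both strands over 300 bases, including 50 after the start. The Gli consensus GACCACCCA was in none of the 8, also with at most 1 mismatch, where 0.253% of 32851 promoters held it exactly and 6.74% with at most 1 mismatch. The progesterone response element was likewise in none of the 8, against 0.475% of all promoters, while 35.7% of all promoters held a GC box. These matches describe the letters of these windows only.

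The wider pathway was read from lists of 52 further genes, of which 50 were in the table and 49 could be tested. With all libraries edgeR called 0 of the 49, against 0.147% of all tested genes. Limma-voom also called 0, where it called only 27 of all tested genes. At an unadjusted p under 0.05, the aged-SP group had 7 genes higher, against 9.62% of all tested genes, and 11 lower, against 9.36%, where 19% passed in either direction. Both aged-SP libraries lay above all young-SP libraries in 8 of the 49, against 19.5% of all tested genes, and below them in 12, against 19.3%. The median log2 fold change was -0.07, so the list as a whole lay close to the median of all genes (0.01). DESeq2 called 1 gene higher (Mycn) and 3 lower (Lrp2 and Disp2 among them), against 3.6% of the genes it tested in either direction. Without young-SP replicate 1, edgeR called 1 gene higher (Mycn) and 4 lower (Lrp2, Sox17 and Fgf1 among them), against 3.45%.

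The receptor side held the lowest value of the list. Lrp2 or megalin, a large endocytic receptor that can bind Hedgehog ligands, stood at 1.47 and 1.03 FPKM in the aged-SP libraries and 10.5, 22.1 and 33.0 FPKM in the young-SP libraries. Its log2 fold change of -4.11 (SE 0.57, edgeR adjusted p = 0.0734) was the lowest of the 49. All young-SP libraries were above both aged-SP libraries, and young-SP replicate 1 was the lowest of its group. By contrast, the co-receptors Cdon, Boc and Gas1, which present the ligand to Ptch1, overlapped between the groups, with log2 fold changes of -0.11, 0.39 and 0.07. Gas1 was the most abundant of them, at 92.4 to 132 FPKM.

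Of the genes that make and release ligands, Shh was not among the genes of the table. Dhh, the ligand best known from the testis and nerves, had 0.734 and 0.918 FPKM in the aged-SP libraries against 0.814, 1.61 and 1.18 FPKM. The groups overlapped (log2 fold change -0.52, edgeR adjusted p = 0.476). The counts of Dhh were low, 29 and 34 against 31, 63 and 42. Of its exon bases, 25.16% also belong to Gm49442 or Rhebl1, so part of this level may belong to those genes. In this list 3 of the 7 tested genes were lower at an unadjusted p under 0.05, against 9.36% of all tested genes. They were Disp2, related to the Dispatched transporter that releases lipid-bearing ligand (-1.55, edgeR adjusted p = 0.114), Scube1, a secreted protein of a family that carries the ligand (-0.93, 0.249), and Hhat, the enzyme that attaches palmitate to it (-0.55, 0.224). The value of Disp2 rests on low counts, 14 and 20 in the aged-SP libraries and 42, 64 and 44 in the young-SP libraries. Disp1, the main Dispatched transporter, overlapped at -0.08. The list of 7 tested genes had a median of -0.52.

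Between Smo and the Gli factors the differences were small. Of 15 relay genes, 3 were higher and 3 lower at an unadjusted p under 0.05, against 9.62% and 9.36% of all tested genes. Both aged-SP libraries lay above all young-SP libraries in 5 of the 15 and below them in 3, against 19.5% and 19.3%. The median log2 fold change was -0.10, with a range of -0.43 to 0.55. The lower genes were Tulp3, which carries receptors into the primary cilium (-0.43), Evc2, a partner of Smo at the cilium base (-0.36), and Prkaca, a catalytic subunit of the kinase that marks Gli proteins for processing (-0.22). The higher genes were Grk3, a receptor kinase (0.55), Arrb2, a beta-arrestin (0.39), and Spop, which targets Gli proteins for degradation (0.29). The negative regulator Sufu, which holds Gli proteins in the cytoplasm, overlapped between the groups at -0.28 (edgeR adjusted p = 0.39). All 6 cilium genes (Ift88, Ift172, Kif3a, Arl13b, Dync2h1 and Ift27) overlapped as well, between -0.11 and 0.19, where 38.8% of all tested genes did not overlap.

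The general Hedgehog target genes differed in both directions. Mycn, a transcription factor of growing cells, was at 16.1 and 12.9 FPKM in the aged-SP libraries and at 2.58, 1.06 and 0.524 FPKM in the young-SP libraries. Its log2 fold change of 3.39 (SE 0.61, edgeR adjusted p = 0.0867) was the highest of the 49 and opposite in sign to those of Gli1, Ptch1 and Hhip. Ccnd2, a cyclin of the G1 phase, was lower, at 4.6 and 3.42 FPKM against 6.55, 7.15 and 7.64 FPKM (log2 fold change -0.81, edgeR adjusted p = 0.0978), and Bcl2, an inhibitor of apoptosis, had a log2 fold change of 0.43 (edgeR adjusted p = 0.135). Ccnd1 and Foxf1 overlapped between the groups, at 0.19 and -0.20.

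Upstream of Ihh, the factors that act with progesterone differed among themselves. Sox17, an epithelial factor that binds near Ihh, stood at 20.6 and 28.7 FPKM in the aged-SP libraries and 42.7, 50.5 and 52.7 FPKM in the young-SP libraries. Its log2 fold change was -0.97 (SE 0.18, edgeR adjusted p = 0.0877), and 23.6% of its stretches of 50 bases are shared with the antisense gene Gm37587. Gata2, which acts with the progesterone receptor, stood at 21.5 and 26.0 FPKM against 33.4, 45.2 and 41.9 FPKM (log2 fold change -0.74, SE 0.16, edgeR adjusted p = 0.11). In both genes the groups did not overlap. The progesterone receptor gene Pgr itself was at 23.1 and 23.8 FPKM against 33.4, 29.6 and 25.8 FPKM, with a log2 fold change of -0.32 (SE 0.13, edgeR adjusted p = 0.27). The estrogen receptor gene Esr1 was at 30.3 and 28.8 FPKM against 22.6, 25.6 and 25.7 FPKM, a log2 fold change of 0.28 (edgeR adjusted p = 0.229), and Arid1a, a chromatin remodeller, overlapped at 0.09.

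Downstream in the stroma, none of the 6 genes separated the groups, where 38.8% of all tested genes did so in either direction. Bmp2, which drives decidualisation after the Hedgehog signal, was at 2.42 and 2.62 FPKM in the aged-SP libraries and 1.83, 2.62 and 2.44 FPKM in the young-SP libraries (log2 fold change 0.15, edgeR adjusted p = 0.737). Wnt4, also needed for decidualisation, was at 2.31 and 6.60 FPKM against 2.49, 1.25 and 0.997 FPKM (1.5, edgeR unadjusted p = 0.0414, adjusted p = 0.245). Leaving out 1 library at a time moved its log2 fold change between 0.56 and 2.06. Among the fibroblast growth factors that Hand2 is known to restrain, Fgf9 was high in aged-SP replicate 1 alone, at 3.19 FPKM against 0.416 to 0.721 FPKM in the other libraries, aged-SP replicate 4 included. Its log2 fold change of 1.78 (edgeR adjusted p = 0.283) went to -0.13 when aged-SP replicate 1 was left out. Fgf1 was at 1.95 and 3.28 FPKM against 1.67, 10.1 and 11.6 FPKM, so that young-SP replicate 1 was the lowest of all (log2 fold change -1.56, edgeR adjusted p = 0.365), and Fgf2 and Fgf18 overlapped at 0.19 and -0.06.

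**Figure D4:**
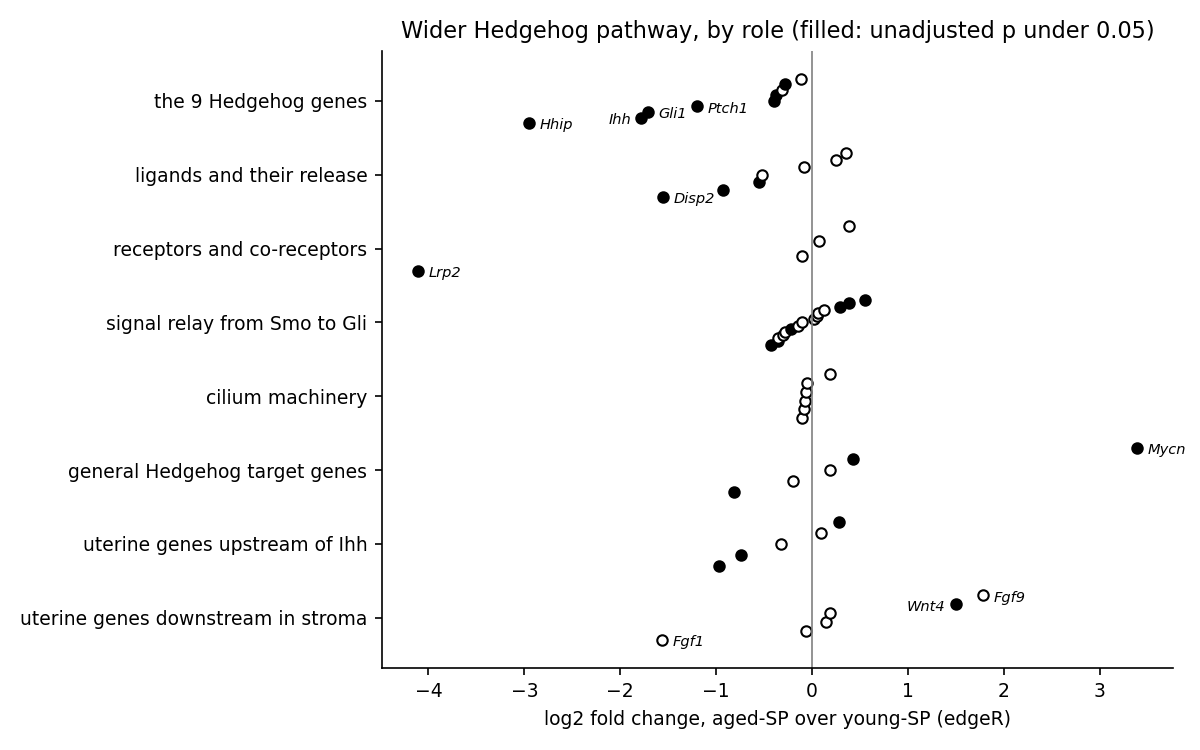
Log2 fold change of aged-SP over young-SP (edgeR, all 5 libraries) for tested genes, by role in the pathway, with genes at an unadjusted p under 0.05 filled and genes beyond 1 in either direction named. Values beyond -1 are those of Ihh, Gli1, Ptch1, Hhip, Disp2, Lrp2 and Fgf1, values beyond 1 are those of Mycn, Wnt4 and Fgf9, and relay and cilium genes lie within -0.43 to 0.55.

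The genes most like Ihh, Ptch1 and Gli1 were sought among 13433 tested genes with a mean of at least 50 counts, as those with the smallest root mean square difference of the mean-centred log2 CPM over the 5 libraries. For Ihh they included Nlgn1 (0.127) and Ap1s3 (0.143), and Gli1 came at rank 7 (0.191). For Gli1 they were Aldh1l1 (0.102), Pfn2 (0.121) and Gdf7 (0.129), with Ihh at rank 17. For Ptch1 they were Rapgef4 (0.0921), Ccdc187 (0.102) and Cited4 (0.111), with Gli1 at rank 121 and Ihh at rank 433. Ptch1 came at rank 116 for Ihh and 68 for Gli1. Hhip was far from all 3, at rank 4713 for Ihh, 5684 for Gli1 and 11799 for Ptch1. The genes named as most alike had negative log2 fold changes, from -1.73 for Ap1s3 to -1.02 for Cited4, as the choice by likeness requires. Ap1s3 stood at 6.21 and 7.65 FPKM in the aged-SP libraries and 13, 29.6 and 27.2 FPKM in young-SP replicates 1, 2 and 4, the same order of libraries as for Ihh.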

How the data were processed

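Uterine libraries were analysed as 2 aged-SP and 3 young-SP samples, grouped by their titles, and 0 columns of sample values were left unused. The authors deposited whole-number read counts per gene, and the FPKM values deposited beside them were made by the authors from these counts and gene lengths. The submitters' processing notes name Bowtie2 2.2.3, HISAT2 2.1.0 and HTSeq 0.6.0. The genome build is not given in the sources used here, and the coordinates match GRCm38. Columns of the authors' own DESeq2 comparison (mean signal, fold changes, p-values and adjusted p-values) were not used. Low counts make values imprecise, and the counts of Hhip are the lowest here.

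Counts were tested with edgeR 4.0.16 in R 4.3.3 (glmQLFit and glmQLFTest, TMM scaling, filterByExpr, two-sided, Benjamini-Hochberg adjustment over 17013 genes, calls at adjusted p below 0.05 with a log2 fold change beyond 1 in either direction). FPKM gave levels only. CPM are counts scaled to TMM-adjusted library totals, with a prior count of 2 on the log2 scale. Ratios were compared by exact permutation tests in scipy 1.17.1. Tables and plots were made with Python 3.11.15, numpy 2.4.6, pandas 2.3.3 and matplotlib 3.10.9.

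Alternatives were DESeq2 1.42.0, limma-voom (limma 3.58.1), edgeR's robust fit, DESeq2 size factors or library size alone, a replicate block, no filter, a minimum of 10 counts in all samples and leaving out each library. DESeq2 without young-SP replicate 1 and the searches for GC boxes and for inexact Gli letters were added after seeing the data. The edgeR script was tested on simulated data. The 9 genes and the lists were chosen with earlier results of these data known. The naming rule took the 9 genes, the wider pathway genes with an unadjusted p under 0.05 (the others named for their role were chosen after their values were seen), the markers, and the 3 genes most like Ihh, Ptch1 and Gli1. Protein sequences were not used here, and some genes of these lists are not reported here.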

Additional observations from a re-analysis of the deposited data

How the results depend on the processing

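With edgeR, 25 of all tested genes, 0 of the 9 Hedgehog genes and 0 of the wider list were called. DESeq2's Wald test called 632, 4 and 4, and without the filter on low counts edgeR called 203, 1 (Gli1) and 2. Leaving out 1 library at a time gave 1 to 578 of all genes, 0 to 4 of the 9 and 0 to 5 of the wider list, with the highest of each without young-SP replicate 1. DESeq2 without that library, added after seeing the data, called 1004, 4 and 6. Of the values of the 9 genes under all alternatives, 112 kept their direction and side of the threshold, 13 crossed to a call and 1 reversed (Smo, -0.36 to 0.08, the latter without aged-SP replicate 1), and for the wider-list genes with an unadjusted p under 0.05, 237 kept them and 15 crossed to a call. The log2 difference of Gli1 to Ihh ran from -0.20 to 0.31 when 1 library was left out, and was negative without aged-SP replicate 1 or young-SP replicate 2 (-0.03). That of Hand2 to Nr2f2 ran from -0.14 to 0.19 and turned for the same libraries (-0.07 for the second). Against the stromal markers, Smo ran from -0.02 (without aged-SP replicate 4) to 0.25, and Hand2 from -0.18 to 0.13 (without aged-SP replicate 4), with 0.07 when young-SP replicate 1 was left out. The cause of these moves was not tested.

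Replicate numbers 1 and 4 occur in both groups, but the labels do not tie them. Deviations from the group means had correlations of 0.152 and 0.136 for same-numbered libraries, and of -0.152 to 0.0757 for differently numbered ones. The 2 aged-SP libraries deviate from their own mean by equal and opposite amounts, so each correlation recurs with the opposite sign. These values therefore cannot show whether same-numbered libraries belong together. With the replicate block edgeR called 2 of all genes, 0 of the 9 (Ihh -1.48, adjusted p = 0.148) and 0 of the wider list. With 2 against 3 libraries, the exact test of a ratio cannot give a p below 0.2, and the 12 to 39 counts of Hhip in the aged-SP libraries leave its fold change uncertain.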
